A study of Homo sapiens with 18 samples.

Results

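The genes for the proteins of the mitochondrial ribosome were followed in K562 cells, an established human leukemia line with erythroid features and almost no BASP1 of its own, in 3 versions. The control, V-K562, carried the empty vector. The line B-K562 made wtBASP1. The line G-K562 made BASP1-G2A, a mutant without the glycine to which the N-terminal myristoyl group is attached. Each line was a stably transfected pool, and RNA-seq and ATAC-seq were each performed on 3 cultures per line, which gives 9 libraries per assay. The p-values therefore measure the spread between cultures of 1 pool per line. A gene was taken as a member if its symbol was MRPL or MRPS followed by a number with at most 1 closing letter from A to C, and if its value was 10 or more in at least 3 libraries of a table. This rule gave 78 of the 28395 genes in each table, and all 78 passed the filter in both tables. The lowest value of any member in any library was 72, so no member was close to the filter.

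The mitochondrial ribosome translates the few proteins that mitochondrial DNA encodes, all of them core subunits of the respiratory chain and of ATP synthase. Its RNAs come from mitochondrial DNA, but its proteins are encoded in the nucleus, made by cytosolic ribosomes and imported. Many of them have a counterpart in bacterial ribosomes, and the rest were gained in the mitochondrial lineage. The members comprised 30 large subunit proteins shared with bacteria, 21 large subunit proteins specific to mitochondria, 16 small subunit proteins shared with bacteria and 10 small subunit proteins specific to mitochondria. MRPS30 and MRPS18A are counted with the large subunit, where their proteins lie in spite of their names. MRPS36 matched the rule by name, but its product belongs to the 2-oxoglutarate dehydrogenase complex.

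The values are normalized read counts, that is, counts divided by a size factor per library and rounded. Library totals lay between 32074895 and 33229588, which reflects the scaling and not the sequencing depth. BASP1 had values of 5 to 7 in V-K562, whereas those of B-K562 were 6189 to 6849 and those of G-K562 were 8124 to 12538. The K562 markers GATA1, TAL1, LMO2, HBG1 and HBZ were present in all lines, but their levels differed. All 5 were higher in B-K562 than in V-K562 and all 5 were lower in G-K562. Their summed value lay between 26779 and 29428 in V-K562, between 46265 and 47672 in B-K562, and between 11694 and 12401 in G-K562. The markers thus moved up in B-K562, as did most members described next, and down in G-K562, where the members were divided. Their part in the results was not tested. In bulk libraries a change in the RNA content of each cell and a change in the make-up of the culture cannot be told apart.

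The members together made up a larger share of the RNA in B-K562 than in V-K562. Their summed value per 1000000 of the library total was 4659, 4387 and 4161 in the V-K562 libraries. It rose to 6417, 6342 and 6207 in B-K562, and in G-K562 it was 3783, 4141 and 3826. The B-K562 libraries stood well apart from all others, whereas the highest G-K562 library lay just under the lowest V-K562 library. The group means were 4402 ± 249 in V-K562, 6322 ± 107 in B-K562 and 3917 ± 195 in G-K562 (SD, n = 3 each). Relative to V-K562, the means of B-K562 and G-K562 were 1.44 and 0.890. The proteins of the cytosolic ribosome showed another order. Their 86 genes summed to 80207 ± 3517 per 1000000 in V-K562, 63825 ± 2186 in B-K562 and 85881 ± 5262 in G-K562 (SD, n = 3 each).

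**Figure D1:**
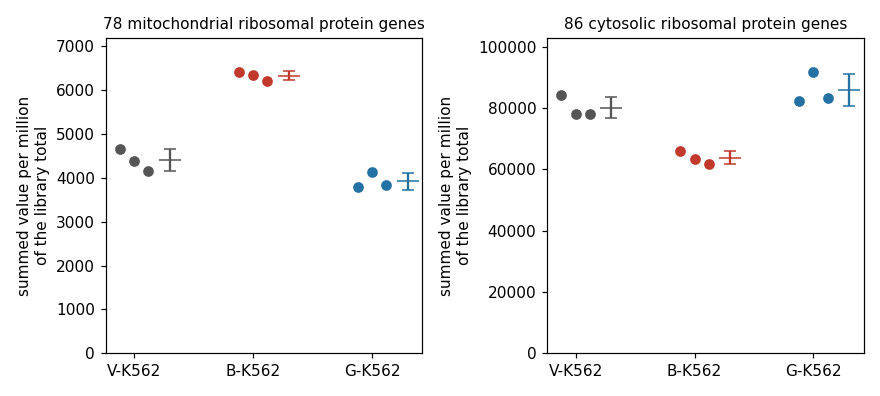
Summed value per 1000000 of the library total for the 78 mitochondrial ribosomal protein genes (left) and 86 cytosolic ribosomal protein genes (right), with 1 point per library and the mean ± SD of 3 libraries beside them. The mitochondrial set is at 6207 to 6417 in B-K562 against 4161 to 4659 in V-K562, while the cytosolic set is lower in B-K562 than in the other lines.

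Gene by gene, 71 of the 78 members were higher in B-K562 than in V-K562, 2 were lower and 5 did not pass the test (limma, Benjamini-Hochberg adjusted p of at most 0.05 over all genes tested). Among all 14958 genes tested, 38.6% were higher and 37.2% were lower. The median log2 fold change of the members was 0.58, against 0.01 for all genes. Most rises were moderate. At least 2-fold rises were seen for 5 of 78 members, close to the 6.46% of all genes, so they are no trait of the members. The 46 proteins shared with bacteria had a median of 0.66 and the 31 specific to mitochondria a median of 0.42. All 5 rises of at least 2-fold were in the shared group. The subunits were alike, with 46 of 51 large subunit genes and 24 of 26 small subunit genes higher and medians of 0.58 in each.

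The 5 largest rises in B-K562 were MRPL1, MRPS17, MRPS12, MRPS7 and MRPL20. MRPL1, the counterpart of the protein that forms the mobile L1 stalk of the bacterial ribosome, had normalized counts of 475, 393 and 295 in V-K562 and of 1165, 1197 and 1143 in B-K562. Every B-K562 library was far above the highest V-K562 library, although the V-K562 libraries themselves varied widely. Its fold change was 3.06 (log2 1.62 ± 0.13 SE, adjusted p = 5.2e-08). MRPL1 (chromosome 4, 77861955 to 77952790, GRCh38) rose while its neighbors had a negative median. The 44 tested genes within 5 Mb that are no members had a median log2 fold change of -0.69.

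MRPS17 encodes a small subunit protein that contacts the ribosomal RNA early in assembly. It was at 424, 439 and 414 in V-K562 and at 1164, 1140 and 1089 in B-K562, a 2.65-fold rise (log2 1.41 ± 0.06 SE, adjusted p = 2.4e-10). The groups were narrow and far apart. MRPS12, whose bacterial counterpart lies at the decoding center, went from 989, 996 and 884 to 2363, 2334 and 2231. The rise was 2.42-fold (log2 1.27 ± 0.06 SE, adjusted p = 3.9e-10). MRPS7 rose 2.29-fold, from 1558, 1420 and 1224 to 3255, 3311 and 3010. MRPL20 rose 2.25-fold, from 2234, 2063 and 1968 to 4888, 4753 and 4424. In both genes all B-K562 libraries lay above all V-K562 libraries.

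MRPL48 and MRPL10 went the other way. MRPL48, a mitochondria-specific protein of the large subunit, had 1641, 1581 and 1686 in V-K562 and 1341, 1291 and 1285 in B-K562 (log2 -0.32 ± 0.05 SE, adjusted p = 5.9e-05). The groups did not overlap. MRPL10 forms the base of the stalk to which copies of MRPL12 are bound. It had 3323, 3167 and 3091 in V-K562 and 3035, 2975 and 2825 in B-K562, a log2 fold change of -0.12 ± 0.05 SE with an adjusted p of 0.044. This call is weak, since it was lost when V-K562 replicate 1 or 2 or B-K562 replicate 2 or 3 was left out, with adjusted p values of 0.072 to 0.20. MRPL12, its partner in the stalk, moved up in the same libraries from 2401, 2218 and 2053 to 4383, 4399 and 4153 (log2 0.96 ± 0.06 SE, adjusted p = 4.7e-09). The 5 members that did not pass the test were MRPL33, MRPL45, MRPL53, MRPS24 and MRPS35, with log2 fold changes between 0.04 and 0.18.

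In G-K562 the members were divided. Against V-K562, 34 of 78 were lower, 12 were higher and 32 did not pass the test (limma, adjusted p of at most 0.05). Without V-K562 replicate 3 the 12 became 7. Of all 15271 genes tested, 33.3% were lower and 33.5% were higher. The members' median log2 fold change was -0.12, against 0.00 for all genes. The changes were small, and MRPL37 was the only member that changed at least 2-fold, where 10.3% of all genes were lower by as much. Large subunit proteins shared with bacteria leaned most to one side, with 19 of 30 lower and 1 higher and a median of -0.33. Among small subunit proteins shared with bacteria, 4 of 16 were lower and 5 higher, with a median of 0.07. The comparison shares its V-K562 cultures with the one above, so the values are given side by side and no overlap was tested.

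**Figure D2:**
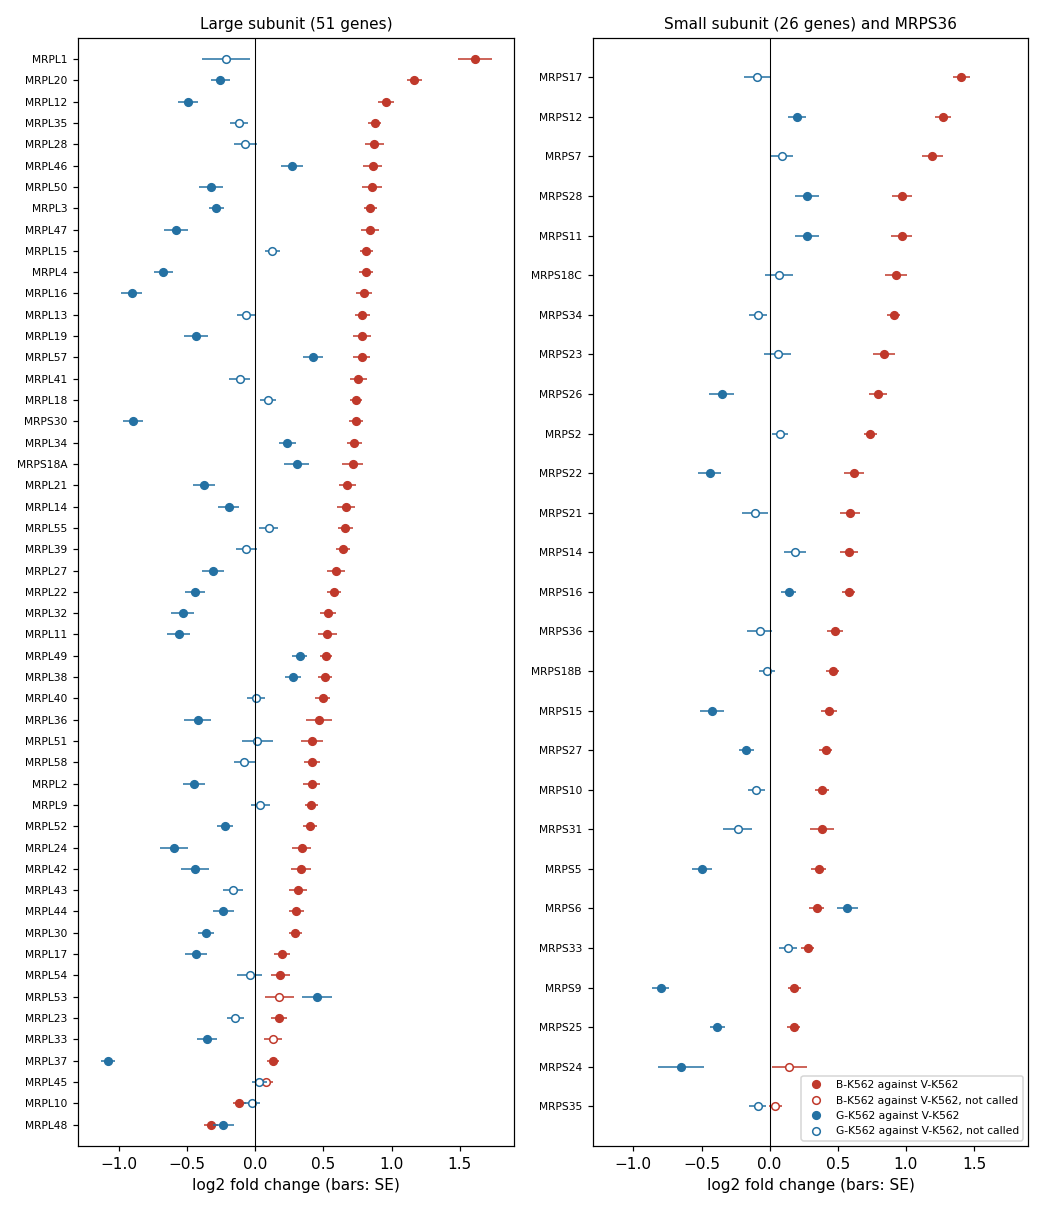
Log2 fold change of each member against V-K562 in B-K562 (red) and G-K562 (blue), with SE bars from limma, sorted by the B-K562 value. Filled points passed an adjusted p of at most 0.05. Nearly all red points are right of 0 and 71 passed the test as higher, while the blue points lie on each side of 0, with 34 lower and 12 higher.

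MRPL37 fell most in G-K562. This mitochondria-specific large subunit protein (chromosome 1, 54200167 to 54226682, GRCh38) had 6664, 6672 and 6512 in V-K562 and 3111, 3212 and 3067 in G-K562, and its fold change was 0.473 (log2 -1.08 ± 0.05 SE, adjusted p = 1.2e-08). The 2 groups were tight and did not overlap. In B-K562 the same gene was at 7147, 7124 and 7060, a log2 change of 0.13 ± 0.04 SE whose call was lost without B-K562 replicate 2. Some 41.2% of its exon length overlaps exons of SSBP3 on the opposite strand, and whether reads were counted by strand is not given in the sources used here.

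MRPL16, the counterpart of a bacterial protein near the site where transfer RNA enters, had 3418, 3339 and 2956 in V-K562 and 1678, 1888 and 1614 in G-K562 (log2 -0.91 ± 0.08 SE, adjusted p = 1.1e-06). In B-K562 it was at 5641, 5607 and 5297, above every V-K562 library, so the 3 lines were ordered without overlap. MRPS30 followed the same order. It was at 2732, 2559 and 2501 in V-K562, fell to 1410, 1507 and 1267 in G-K562 (log2 -0.90 ± 0.07 SE, adjusted p = 7.8e-07) and was at 4468, 4130 and 4185 in B-K562. MRPS9 fell by 0.80 and MRPL4 by 0.67 on the log2 scale in G-K562, and both were higher in B-K562, by 0.18 and 0.81. MRPL12 fell to 1603, 1710 and 1497 (log2 -0.50 ± 0.07 SE, adjusted p = 1.0e-04).

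The largest rises in G-K562 were those of MRPS6, MRPL53, MRPL57, MRPL49 and MRPS18A. MRPS6 went from 1157, 1120 and 1043 in V-K562 to 1494, 1777 and 1672 in G-K562 (log2 0.57 ± 0.08 SE, adjusted p = 4.5e-05). It was also higher in B-K562, at 1428, 1341 and 1373, and it shares 22.5% of its exon length with SLC5A3 on the same strand. MRPL53 had 682, 491 and 559 in V-K562 and 768, 818 and 764 in G-K562 (log2 0.45 ± 0.11 SE, adjusted p = 0.0029). MRPL57, MRPL49 and MRPS18A rose by 0.42, 0.32 and 0.31 on the log2 scale, and each had risen more in B-K562, by 0.78, 0.52 and 0.71. The call of MRPS18A in G-K562 was lost without V-K562 replicate 3 (adjusted p = 0.051 by limma).

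**Figure D3:**
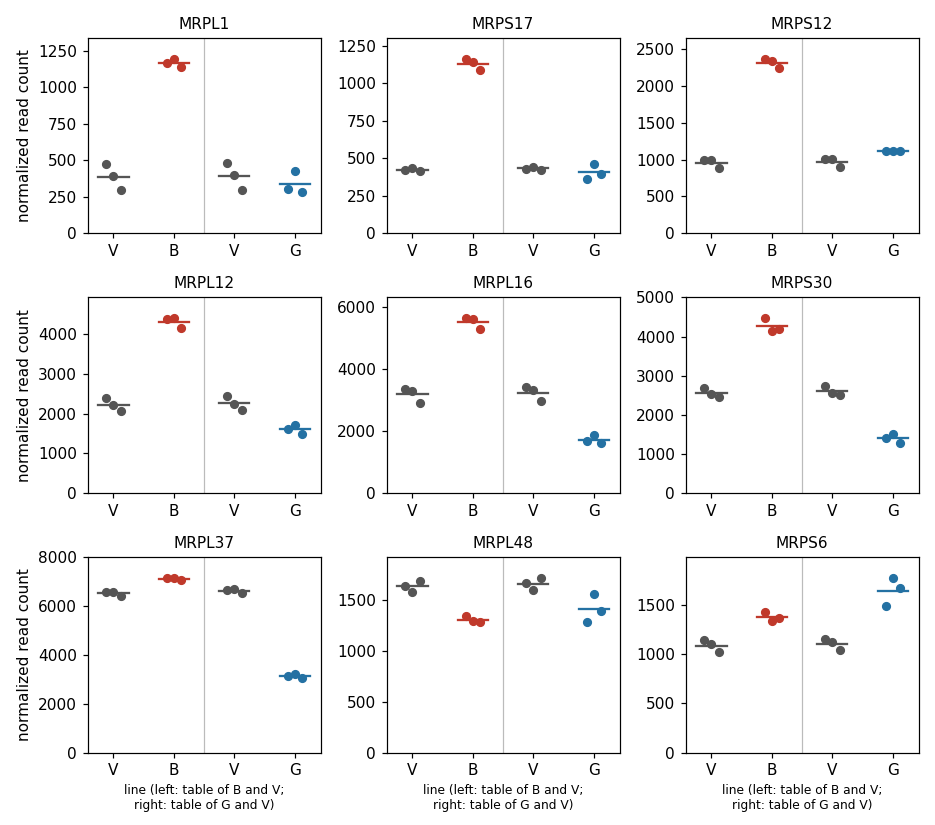
Normalized read counts of 9 members in every library, with V-K562 shown in each table next to the line it was compared with and a bar at the mean of 3 libraries. MRPL1, MRPS17 and MRPS12 are highest in B-K562, MRPL12, MRPL16 and MRPS30 are highest in B-K562 and lowest in G-K562, MRPL37 is low in G-K562 alone, MRPL48 is lower in both lines and MRPS6 is higher in both.

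The direct comparison of the lines that carry BASP1 separated the members most clearly. In G-K562, 73 of 78 were lower than in B-K562, 2 were higher and 3 did not pass the test (limma fit of all 9 libraries, adjusted p of at most 0.05). Of all 15521 genes tested, 40.5% were lower and 38.1% were higher. The median log2 fold change of the members was -0.70, against -0.02 for all genes, and 20 members were lower by at least 2-fold, compared with 12.5% of all genes. Of those 20, 15 were shared with bacteria and 5 were specific to mitochondria. The 2 that were higher were MRPL53 (log2 0.28) and MRPS6 (log2 0.23), and MRPL53 lost its call without B-K562 replicate 2 or 3 or G-K562 replicate 2. The 3 others were MRPL10, MRPL45 and MRPL48.

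MRPL1 differed most between the lines, with a log2 fold change of -1.83 ± 0.16 SE (adjusted p = 7.8e-08). It was at 303, 429 and 285 in G-K562 and did not pass the test against V-K562 (log2 -0.22), although without G-K562 replicate 2 it did, at -0.40. MRPL16 followed with -1.70, MRPS30 with -1.64, MRPS17 with -1.50 and MRPL4 with -1.49. Taking the 3 tests side by side, 31 members went up in B-K562 and down in G-K562 relative to V-K562. All 31 were also lower in G-K562 than in B-K562, which follows almost from choosing them by opposite calls against the same libraries. A further 29 were higher in B-K562 with no call in G-K562, and 11 were higher in both lines. Among the 14754 genes tested in all comparisons, 11.2% were higher in B-K562 and lower in G-K562, 13.0% were higher in B-K562 with no call in G-K562 and 14.2% were higher in both. MRPL48 was lower in both lines, with no call between them.

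MRPL58, a peptidyl-tRNA hydrolase that can free stalled mitochondrial ribosomes, had a log2 fold change of 0.41 in B-K562 and of -0.08 with no call in G-K562. MRPL44, which carries a ribonuclease III-like domain, had 0.30 in B-K562 and -0.23 in G-K562. The latter call was lost when V-K562 replicate 2 or G-K562 replicate 1 or 3 was left out. The paralogs MRPS18A, MRPS18B and MRPS18C, which occupy different places in the ribosome, rose in B-K562 by 0.71, 0.46 and 0.93. In G-K562 MRPS18A was higher by 0.31, while MRPS18B at -0.02 and MRPS18C at 0.07 were not called. MRPS18C shares 60.2% of its exon length with FAM175A on the opposite strand.

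Several members are known from inherited defects of mitochondrial translation. Of these, MRPL3 was higher in B-K562 by a log2 value of 0.84 and in G-K562 it had -0.29, and MRPS22 had 0.62 and -0.44. MRPS2 had 0.74 in B-K562 and 0.08 with no call in G-K562, and MRPS34 had 0.91 and -0.08 with no call. MRPS16 was higher in each line, by 0.58 and 0.14, but the G-K562 call at an adjusted p of 0.044 was lost without replicate 1 or 3 of either line. Apart from these, MRPL41 rose by 0.76 in B-K562 and had -0.11 with no call in G-K562. MRPS36, which is no ribosomal subunit, had 0.48 in B-K562 and -0.07 with no call in G-K562.

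Levels differed far more between members than between lines. Per kilobase of exon length, the mean normalized count in V-K562 was highest for MRPS15 at 2593, MRPL40 at 2506 and MRPL51 at 2477. It was lowest for MRPS11 at 191, MRPS24 at 186 and MRPL19 at 179. For MRPS24, 87.1% of the exon length is shared on the same strand with the readthrough gene URGCP-MRPS24, so its count is uncertain. MRPS15 was at 3495 per kilobase in B-K562 and 1970 in G-K562, and MRPL19 was at 307 and 134. MRPL40 and MRPL51 rose in B-K562, by 0.49 and 0.42 on the log2 scale, and were not called in G-K562, at 0.00 and 0.01.

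Exons of 12 members overlap those of another gene over at least 10% of their length, among them MRPS12, MRPS7, MRPS2 and MRPL37. Among the other 66 members, 60 were higher and 2 lower in B-K562, 10 were higher and 29 lower in G-K562, and 62 were lower and 1 was higher when G-K562 was compared with B-K562. Of all genes tested, 38.6% were higher and 37.2% lower in B-K562, and 33.5% were higher and 33.3% lower in G-K562. When G-K562 was compared with B-K562, 40.5% of all genes were lower and 38.1% were higher.

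Some members start close to a neighbor on the opposite strand. The start was taken as the outermost exon end of each gene. Of 70 members with a RefSeq promoter window, this start lay within 500 bases of the RefSeq start for 63 and within 50 bases for 41. Short distances between starts are therefore approximate. A gene that starts within 1000 bases on the opposite strand and runs the other way was found for 19 members, 24.4%, compared with 15.1% of all tested genes. MRPL46 and MRPS11 are such a pair, each counted among the 19, and start 51 bases apart on chromosome 15. Both rose in B-K562, MRPL46 from 577, 535 and 498 to 989, 987 and 945 and MRPS11 from 642, 536 and 543 to 1170, 1115 and 1076. Their log2 fold changes were 0.86 and 0.97 in B-K562 and 0.27 for each in G-K562, where the MRPS11 call was lost without V-K562 replicate 2 or 3 or G-K562 replicate 3. MRPL21 and IGHMBP2, which start 16 bases apart, also stayed close, with 0.67 and 0.56 in B-K562 and -0.38 and -0.33 in G-K562. Other pairs parted. MRPL43 had 0.31 in B-K562, whereas TWNK, the helicase of mitochondrial DNA, which starts 21 bases away, had 1.62. MRPL27 rose by 0.59 while EME1, a DNA repair nuclease subunit whose start is 19 bases away, had -0.69. MRPL47 rose by 0.84 while NDUFB5, a subunit of respiratory complex I, had -0.34.

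ATAC-seq, which marks open chromatin by transposase insertion, was read at the members' gene starts, taken as above with the same limit. A region with a called peak within 500 bases of the start was found for 76 of 78 members, and MRPL46 and MRPS11 share a single region, which gives 75 regions. A peak was called in all 9 libraries for 72 of them. In B-K562, 22 of 73 tested regions were more accessible than in V-K562 and 0 were less accessible (limma on scaled summit pileups, adjusted p of at most 0.05). Of all 52204 regions tested, 8.52% were more accessible, but among the start regions of all genes the share was 18.5%. In G-K562, 40 of 74 were more accessible and 0 less, against 15.9% of all 54213 regions and 37.9% of all start regions. Of all start regions, 3.18% in B-K562 and 5.52% in G-K562 were less accessible, and at an unadjusted p under 0.05 the members had 0 and 1. The medians of the members' regions were 0.30 and 0.38 on the log2 scale, and those of all start regions were 0.23 and 0.31. Leaving out any of the 6 libraries lowered the count in B-K562 to 10 to 17 regions, and leaving out G-K562 replicate 3 gave 24 in G-K562. A fit with 1 library fewer is also a weaker test. The share of all start regions in these fits is not given, so the lower counts are no result about the members. With no scaling beyond equal tags the counts were 37 and 63. Leaving out this scaling raises regions of B-K562 and G-K562 in general against V-K562. The share of all start regions in that setting is not given, so these counts are no result about the members.

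In G-K562 start regions gained accessibility whichever way the RNA went. Of the 33 members whose RNA fell there and whose region was tested, 15 had a more accessible start region and 18 had no call. A more accessible region was also found for 19 of the 30 members with no RNA call and for 6 of the 12 whose RNA rose, and for 37.9% of all start regions, so the count of 15 is no result about the members whose RNA fell. MRPL16 (chr11:59810293-59811079, GRCh38) had scaled summit pileups of 76.5, 104 and 135 in V-K562 and of 177, 202 and 161 in G-K562. Its log2 fold change was 0.84 ± 0.20 SE (adjusted p = 0.013), while its RNA had -0.91. MRPL12 (chr17:81702930-81703613) had 137, 133 and 98.8 in V-K562, 128, 115 and 110 in B-K562 and 196, 167 and 160 in G-K562. Its start region was thus more accessible in G-K562 than in either other line, at 0.55 against V-K562, although its RNA was lowest there. MRPL48 had 127, 123 and 120 in V-K562 and 209, 199 and 204 in G-K562 (log2 0.76 ± 0.08 SE, adjusted p = 4.6e-04), and its RNA had -0.24, a call that was lost without V-K562 replicate 3 or G-K562 replicate 1.

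The largest gains in accessibility were those of MRPS2 at 1.33, MRPL23 at 1.17 and MRPL3 at 1.06 in G-K562. MRPS2 had scaled pileups of 35.4, 58.6 and 62.9 in V-K562 and of 108, 149 and 121 in G-K562, with no overlap. MRPL23 had no called peak in any V-K562 library, so its fold change is set by the floor of 17 used for missing peaks. Between the lines that carry BASP1, 10 of 74 regions were more accessible in G-K562 than in B-K562 and 2 were less accessible, when 12.2% and 15.5% of all 60181 regions were called in those directions. Of all start regions, 12.9% were more and 8.09% were less accessible. The 10 became 5 without G-K562 replicate 2 or 3, and 6 without B-K562 replicate 2 or 3. These fits too are weaker tests, and no share of all start regions is given for them. The 2 less accessible regions were those of MRPL37 and MRPS30. With no scaling beyond equal tags the counts were 25 more and 0 less accessible, so both of these calls depend on the scaling. Leaving it out raises regions of G-K562 in general against B-K562, so this setting cannot decide whether the 2 calls are sound.

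At MRPS30 (chr5:44808564-44809560, GRCh38) RNA and accessibility were both highest in B-K562. The scaled pileups were 175, 154 and 217 in V-K562, 321, 312 and 259 in B-K562 and 223, 223 and 188 in G-K562. The B-K562 libraries lay above all others, with a log2 fold change of 0.73 ± 0.14 SE against V-K562 (adjusted p = 0.0091), and G-K562 was at -0.49 relative to B-K562. Against V-K562, however, the G-K562 region was at 0.26 with no call (adjusted p = 0.17), while the RNA was lower. At MRPL37 the values were 207, 203 and 189 in V-K562, 219, 254 and 215 in B-K562 and 174, 130 and 161 in G-K562. G-K562 differed from B-K562 by -0.57 ± 0.12 SE (adjusted p = 0.0051) and from V-K562 by -0.34, which did not pass the test (adjusted p = 0.053).

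**Figure D4:**
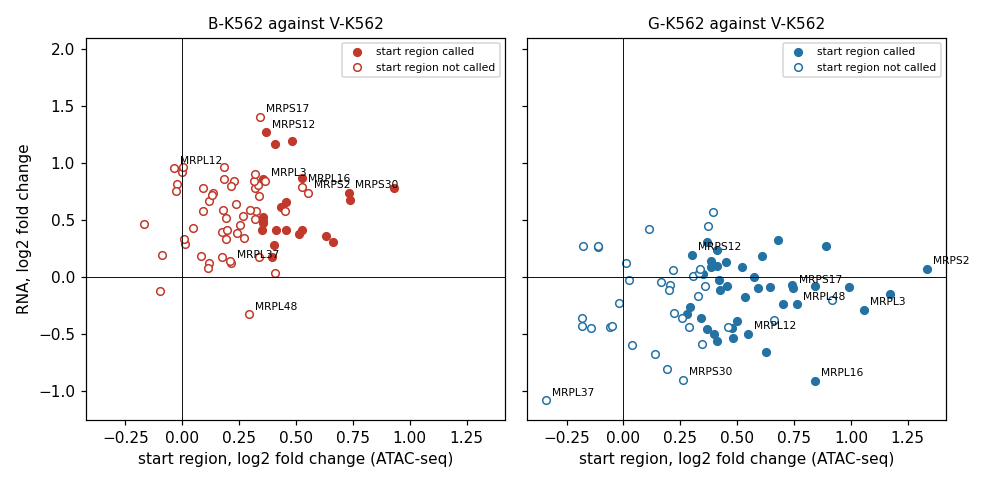
Log2 fold change of the start region in ATAC-seq (horizontal) and of the RNA (vertical) for each member with a tested start region, B-K562 left and G-K562 right, each against V-K562. Filled points are start regions with an adjusted p of at most 0.05. In B-K562 most points lie above 0 on the RNA axis, and in G-K562 MRPL16, MRPL12 and MRPL48 lie right of 0 and below it.

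The sequence around the starts was read from RefSeq promoter windows of GRCh38.p14, which hold 250 bases before and 50 bases after each start and were found for 70 members. The start in the tables lay within 50 bases of the RefSeq start for 41 of them and within 500 bases for 63. Motifs were searched on both strands, no letters of a motif contain those of another, and in 0 members did matches of different motifs overlap. The ETS motif CCGGAAG was present in 29 members (41.4%), 10.7% of all 27305 promoters and 18.4% of the promoters of tested genes. The YY1 motif AAGATGGC was present in 20 (28.6%), against 3.03% and 5.14%. The palindromic NRF1 motif was found in 8 (11.4%), against 6.28% and 11.1%, and the E-box CACGTG in 7 of 70, against 7.43% and 9.82%. The CRE motif TGACGTCA was found in 0, against 1.98% and 3.14%.

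The median RNA changes were compared between members with and without the letters. Members with the ETS motif had medians of 0.58 (B-K562) and -0.10 (G-K562) on the log2 scale, and those without it 0.53 and -0.19. With the YY1 motif the medians were 0.52 and -0.20, and without it 0.58 and -0.11. The 8 members with the NRF1 motif had lower medians, 0.29 and -0.28, than those without it, 0.58 and -0.11, and no difference between medians was tested. A match is only a run of letters, and occupancy was not measured.

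Windows of 30 bases around an ETS match are shown for members among the 5 largest rises or falls of a comparison, with the match in capitals in either orientation. They include MRPL48 and MRPL53, which did not pass the test as higher in B-K562.
MRPL16: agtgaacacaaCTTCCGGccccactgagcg
MRPL20: cgaccttcgccCCGGAAGtatcgcaggggc
MRPL48: aatttcagaagCTTCCGGaactaaaatgat
MRPL53: gcagccggcggCCGGAAGtctatcccgcag
MRPS12: acggatagcgcCCGGAAGaggctagaagct
MRPS18A: ggcgctacgttCCGGAAGcggaaatggacg

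Windows around the YY1 match are shown in the same way for 4 of the 5 such members. The letters contain ATG, so a match that lies after the start can hold a start codon.
MRPL20: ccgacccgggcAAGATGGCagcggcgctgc
MRPS18A: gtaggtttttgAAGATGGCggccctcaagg
MRPS30: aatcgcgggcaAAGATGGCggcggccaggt
MRPS7: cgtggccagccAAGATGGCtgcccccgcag

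None of the searched letters occurs in the 250 bases before the start of MRPL12 (chr17:81703117-81703366, plus strand) or MRPS17 (chr7:55951627-55951876, plus strand), which are shown because MRPL12 was highest in B-K562 and lowest in G-K562 and MRPS17 rose in B-K562 with no call in G-K562.
MRPL12: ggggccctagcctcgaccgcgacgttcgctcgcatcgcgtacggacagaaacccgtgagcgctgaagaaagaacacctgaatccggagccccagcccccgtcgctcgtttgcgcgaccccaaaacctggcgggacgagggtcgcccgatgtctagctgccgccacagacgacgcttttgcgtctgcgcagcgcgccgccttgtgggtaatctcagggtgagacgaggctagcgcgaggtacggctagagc
MRPS17: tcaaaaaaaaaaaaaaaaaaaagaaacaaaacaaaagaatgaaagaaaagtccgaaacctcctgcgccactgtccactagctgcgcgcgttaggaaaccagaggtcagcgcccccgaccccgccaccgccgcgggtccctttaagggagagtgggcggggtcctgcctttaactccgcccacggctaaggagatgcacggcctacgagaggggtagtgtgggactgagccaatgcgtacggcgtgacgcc

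Other nuclear genes of mitochondrial gene expression were examined as fixed lists. For each list below, the shares of all genes tested were 38.6% higher and 37.2% lower in B-K562. They were 33.5% higher and 33.3% lower in G-K562. When G-K562 was compared with B-K562, 38.1% were higher and 40.5% lower. The 5 ribosomal subunits that carry other names, DAP3, CHCHD1, AURKAIP1, PTCD3 and GADD45GIP1, were all higher in B-K562, from 0.22 for DAP3 to 1.07 for GADD45GIP1. In G-K562, 4 of the 5 were lower, AURKAIP1 most with -0.53, and CHCHD1 was not called at -0.02. All 5 were lower in G-K562 than in B-K562. Of 25 assembly and ribosomal RNA modification factors, 22 were higher and 1 lower in B-K562, with a median of 0.69. The largest rise was that of the RNA helicase DDX28 at 1.49 and the fall was that of the GTPase NOA1 at -0.37. In G-K562, 10 of the 25 were higher and 5 lower, from -0.35 for RBFA to 1.22 for YBEY, an endoribonuclease. YBEY also exceeded its B-K562 level in G-K562, by 0.77, while MRM3, a methyltransferase of the large ribosomal RNA, had the largest fall in that comparison at -1.28.

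Translation factors moved like the ribosomal proteins in B-K562 and between the lines that carry BASP1. Of 14, 13 were higher in B-K562, from 0.19 for LRPPRC to 1.23 for the elongation factor GFM1, and MTIF3 was lower at -0.16. In G-K562, 5 were lower and 1 higher, with -0.30 for GUF1 and 0.27 for the recycling factor MRRF. The 35.7% that were lower are near the 33.3% of all genes, so that count is no result about these factors. Between the lines 13 were lower in G-K562 and 0 higher, GUF1 most with -1.21. Of 10 genes for transcription and maintenance of mitochondrial DNA, 9 were higher in B-K562, TWNK most at 1.62, and POLG2 at 0.04 was not called. In G-K562, 4 were lower, SSBP1 most at -0.41, and MTERF1 was higher at 0.45. TWNK had the largest fall between the lines at -1.76.

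Of 9 transcription factors and coactivators known to act on nuclear genes for mitochondria, 8 passed the filter and 6 were higher in B-K562. The coactivator PPRC1 rose most at 1.30, and NRF1 and PPARGC1B had 0.72 and 0.73. GABPB1, a subunit of an ETS factor, was lower at -0.19. In G-K562, MYC at -1.48 and PPARGC1B at -1.03 fell most, and YY1 rose most at 0.64. In that line NRF1 was at -0.09 with no call, and MYC at 0.06 was not called in B-K562. PPARGC1B had the largest fall between the lines at -1.76, and YY1 was the only rise at 0.36. The paper describes the levels of several factors, MYC and YY1 among them, as unchanged in both BASP1 lines. The values of MYC and YY1 in G-K562 given here differ from that description.

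Cytosolic ribosomal protein genes were lower in B-K562, with 68 of 82 tested lower and 8 higher and a median of -0.29 on the log2 scale. Against the same control, G-K562 had 14 lower, 21 higher and 47 not called, with a median of 0.05. Between the lines 61 of 83 were higher in G-K562 and 7 were lower. Many of these genes have near-identical processed copies in the genome and only uniquely mapped reads were kept, so their levels are less certain than those of the members.

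**Figure D5:**
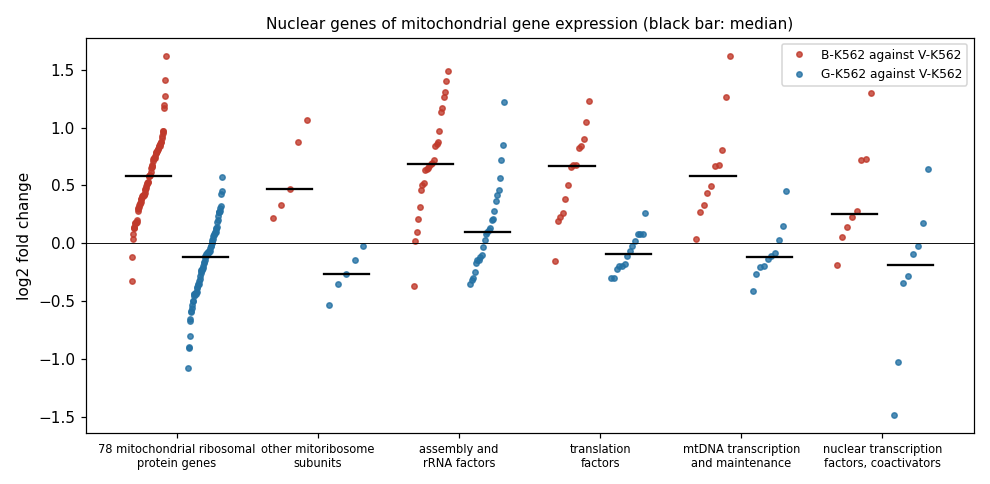
Log2 fold change against V-K562 of the 78 members and of 5 lists of other nuclear genes for mitochondrial gene expression in B-K562 (red) and G-K562 (blue), with 1 point per gene and a black bar at the median. The medians in B-K562 are 0.58 for the members and 0.25 to 0.69 for the other lists, while those in G-K562 lie between -0.27 and 0.10.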

How the data were processed

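RNA-seq reads were mapped by the authors with STAR to GRCh38, duplicates were removed, unique reads with at most 2 mismatches were counted on RefSeq genes with Subread, and the deposited signal values are these counts divided by size factors and rounded. The tables' own fold changes and p-values were not used. Since raw counts were not used here, limma 3.58.1 (R 4.3.3) with a variance trend was run on log2(value + 1), for genes with at least 10 in at least 3 libraries, with Benjamini-Hochberg adjustment over all genes tested. The BASP1 lines were set against each other in 1 model of the 9 libraries, with B-K562 values multiplied by 1.017, the mean ratio of the V-K562 columns in the 2 tables. Fold changes are on the log2(value + 1) scale.

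For ATAC-seq (BWA-MEM, MACS2 per library), the deposited signal is the pileup at each peak's summit, after the authors reduced libraries to equal tags. Intervals were merged into 85549 regions, summits were scaled by a trimmed mean (30% of log ratios, 5% of means), values under 17 or missing were set to 17, and regions with a peak in at least 3 libraries were tested. Since read depth is not held in these values, no counting intervals are given.

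Scripts were tested on simulated data. The members and lists were chosen with earlier results of these data known. Named members are the 5 largest rises and falls of each comparison, the 3 highest and lowest per kilobase, members with a known role and the extremes of each list. All other names were chosen after their values were seen. TWNK was matched through its older symbol. Other steps used Python 3.11.15. A marker gene and a promoter window are not reported here.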

Additional observations from a re-analysis of the deposited data

Results flagged for a closer look

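For 31 of 78 members B-K562 was called higher and G-K562 lower than V-K562. The same held for 11.2% of the 14754 genes tested in all comparisons. Each line is 1 pool, so an effect of the protein cannot be told apart from other differences between the pools. The direct comparison of the lines in the fit of all 9 libraries passed for each of the 31 (limma, adjusted p of at most 0.05). Members picked for calls in opposite directions against the same control nearly always differ between the lines, so this pass adds no support. Both contrasts with V-K562 use the same V-K562 libraries. The test of G-K562 against B-K562 uses them for the spread and for scaling the tables to each other. Among the members named in the report, the log2 fold change of G-K562 against B-K562 was -1.70 for MRPL16, -1.64 for MRPS30, -1.49 for MRPL4, -1.45 for MRPL12 and -1.42 for MRPL20. It was -1.22 for MRPL19, -1.21 for MRPL37, -1.13 for MRPL3 and -1.06 for MRPS22. It was -0.98 for MRPS9, -0.86 for MRPS15 and -0.54 for MRPL44. In each of these the log2 fold change against V-K562 was above 0 in B-K562 and below 0 in G-K562. For MRPL37 the B-K562 call was lost without B-K562 replicate 2. For MRPL44 the G-K562 call was lost without V-K562 replicate 2 or G-K562 replicate 1 or 3.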

How the results depend on the processing

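Counts in B-K562 held at 68 to 73 higher members and those of G-K562 against B-K562 at 70 to 73 lower members under every alternative that tested all 78, and the directions of the medians did not change. Leaving out 1 library gave 1 to 2 lower members in B-K562 with medians of 0.52 to 0.60, 7 to 12 higher and 30 to 38 lower in G-K562 with medians of -0.18 to -0.08, and 1 to 3 higher between the lines with medians of -0.76 to -0.68. The 7 came without V-K562 replicate 3. A fit without a variance trend or without a filter on low values gave 1 lower member in B-K562, and the fit without a trend gave 1 higher member between the lines. Counting only members with little exon overlap, an alternative chosen after seeing the data, also gave 1 there.

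For the start regions, using pileups with no scaling beyond equal tags gave 37 more accessible in B-K562, 63 in G-K562 and 25 between the lines, with 0 less accessible. Leaving out the scaling raises regions in general in each of these comparisons. No share of all start regions is given for it, so these counts are no result about the members. Requiring a peak in every library gave 1 less accessible region in G-K562. Leaving out 1 library gave 10 to 17 more and 0 less accessible in B-K562, 24 to 32 more and 0 to 1 less in G-K562, and 5 to 11 more and 1 to 3 less between the lines. A fit with 1 library fewer is a weaker test, and no share of all start regions is given for it. The cause of these differences in counts was not tested. In RNA-seq, replicate numbers did not pair the cultures. Same-numbered libraries had correlations of deviations of -0.15 to 0.26, and other pairs -0.30 to 0.37. In ATAC-seq, same-numbered pairs were all weakly positive, at 0.007 to 0.12, against -0.08 to 0.05 for other pairs. The replicate block gave 73 higher in B-K562, 35 lower and 11 higher in G-K562, and 73 lower between the lines. It gave 21, 38 and 11 more accessible regions. Of the named genes, none reversed a called direction under these alternatives. MRPL1, with 295 to 475 in V-K562, ranged from 1.43 to 1.78 in B-K562.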
